A study of Mus musculus with 10 samples.

Results

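NRF2 (encoded by *Nfe2l2*) is the transcription factor that switches on the cell's antioxidant genes. It is normally held in the cytoplasm by KEAP1, which hands it to a CUL3 ubiquitin ligase for degradation. When KEAP1 is modified by oxidants or electrophiles, NRF2 enters the nucleus, pairs with a small MAF protein and binds the antioxidant response element (ARE), whose core reads TGACNNNGC, while BACH1 can occupy the same element and repress it. The accessible chromatin described here surrounds *Nfe2l2*, *Keap1* and 8 well-known NRF2 targets: *Nqo1*, *Hmox1*, *Gclc*, *Gclm*, *Txnrd1*, *Srxn1*, *Slc7a11* and *Gsr*. A region was taken where its summit, the position of strongest signal, lay inside one of the 10 genes or within 25 kb of it, and it was called a promoter within 1 kb of a transcription start site. This rule uses position alone and gave 125 regions, each a window of 250 bp on either side of a summit, of 184764 in the genome.

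The regions came from bulk ATAC-seq, which reads open chromatin through the sites where a transposase can cut, of cells sorted from embryonic mouse hearts. All animals were Rosa26tdTomato;Wt1CreERT2/+ on C57BL/6J, so that cells which had expressed *Wt1* when tamoxifen was given, and their descendants, were tdTomato+, and 1 *Wt1* allele carried the Cre in every group. Epicardium (CD31-tdTomato+PDPN+) was sorted at E11.5, from pools of 6 hearts, and at E17.5, from pools of 4 hearts, with 3 biological replicates at each stage. Epicardium-derived cells (EPDCs, CD31-tdTomato+PDPN-), which have left the epicardial layer, came from 1 sample of E12.5 and 2 of E13.5, each a pool of hearts, so 9 libraries were compared, with the technical replicates of 1 EPDC sample counted once. Each sample pooled the hearts of several embryos, so the spread between libraries is one between pools.

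The lists held 94909 to 142743 summits per library on chromosomes 1 to 19, X and Y, over a genome background of 2.07 to 10.9 fragments per position. The level of a region in a library is given as its rank percentile, the share of that library's summits with an equal or weaker −log10 p, and 0 marks a region that was not called, so that a 0 leaves the state of the chromatin unknown. Every library called the promoters of all 6 epicardial markers listed, from *Wt1* to *Bnc1*. Of 5 endothelial markers, *Kdr* and *Tek* were called in all 9 libraries and *Pecam1*, *Cdh5* and *Tie1* in none. *Kdr* alone of these differed with no overlap, being higher in EPDCs by 3.16 points. Of 5 blood and macrophage markers only *Csf1r* was called, in 1 EPDC library. Of 5 cardiomyocyte markers, *Tnnt2* and *Actn2* were called in all 9 libraries and *Myh6* in none. The summed percentiles of the cardiomyocyte list were 210 to 253 at E11.5, 198 to 219.8 at E17.5 and 203 to 233 in EPDCs. The list moved both ways: at E17.5 *Tnnt2* and *Actn2* were lower and *Myl7* was higher with no overlap, and in EPDCs *Nkx2-5* was higher and *Myl7*, called in no EPDC library, was lower. The part of these cells in the results was not tested. Of the 6 epicardial markers, 3 (*Wt1*, *Upk3b* and *Bnc1*) were lower and 1 (*Aldh1a2*) higher at E17.5 with no overlap, with a median difference of -3.24 points over the list. In EPDCs 2 were lower with no overlap and none was higher, with a median of 0.32 points. The lower ones in EPDCs were *Upk3b*, at 97.0 to 99.2 in the epicardial libraries and at 22.8 to 73.6 in EPDCs, and *Aldh1a2* (-7.28 points). In 83 stretches of the genome the epicardial lists held no summit while all 3 EPDC lists shared at least 5 regions, and those stretches held 15.9% of all regions called in EPDCs alone. EPDC lists also held 252 to 268 summits on mitochondrial and unplaced sequence, where epicardial lists held none, so that cell population and list making cannot be told apart there. In bulk samples, a weaker region in every cell and fewer cells with an open region cannot be told apart either.

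Around the 10 genes, 16 regions lay at the members' own promoters, 10 at the promoters of neighbouring genes and 99 at neither. 66 of the 125 were intergenic and 35 lay in an intron of a member. 47 were called in all 9 libraries, 65 in 2 to 8 and 13 in a single library. The map of regions around each gene shows *Txnrd1* (19 regions), *Nfe2l2* (18) and *Gsr* (18) as the richest loci and *Srxn1* (6) as the sparsest.

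**Figure D1:**
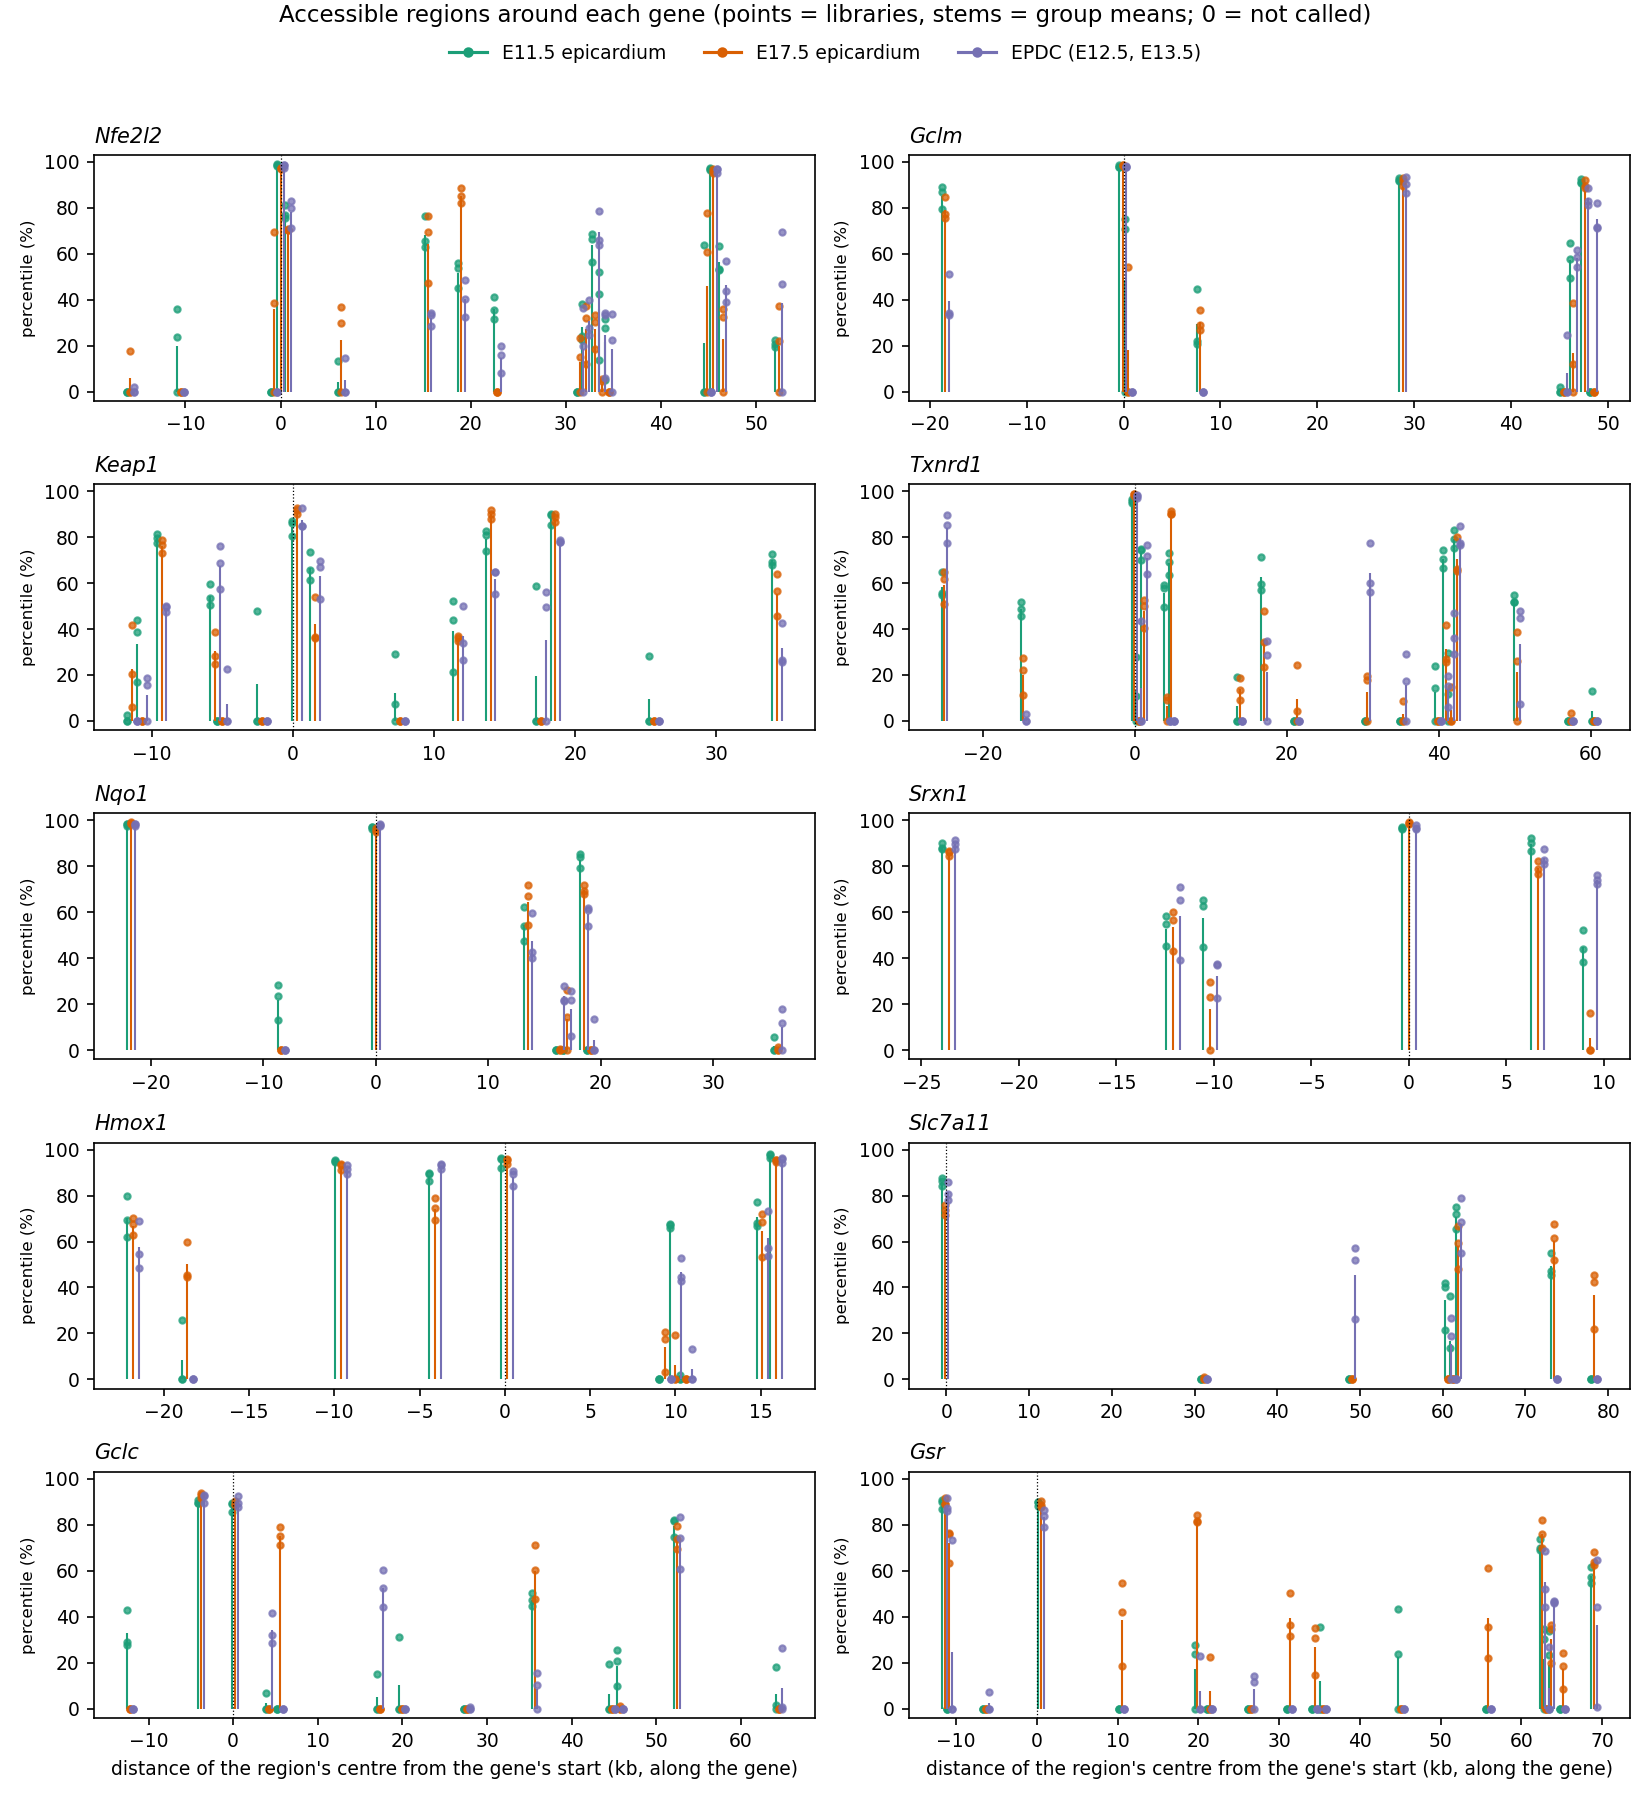
Rank percentile (y axis, %, 0 for not called) of every region around each of the 10 genes against the distance of its centre from the gene's start (x axis, kb, read along the gene). Points are libraries and stems are group means, with E11.5 epicardium in green, E17.5 epicardium in orange and EPDCs in purple, the stems of a region being set side by side. The strongest promoter region of each gene stands high in all 9 libraries, and the *Gsr* intron regions at 10.5, 31.3 and 34.4 kb have orange stems alone.

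The sequences that could carry NRF2 were read from the reference genome (GRCm38.p6, the build of mm10). The ARE core TGACNNNGC was searched on both strands of every such window, together with its strong form TGACTCAGC and the AP-1 site TGANTCA, which TGACTCAGC contains along with the core. 28 of the 125 regions (22.4%) held the ARE core, near its share of 19.9% in all 184764 regions. 4 regions (3.20%) held TGACTCAGC, against 1.69% of all regions, and 20 (16.0%) held the AP-1 site, against 22.8%. These are matches of letters and not evidence of binding.

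3 copies of TGACTCAGC stood within 1 region, 9.6 kb upstream of *Hmox1*, whose product degrades heme to iron, carbon monoxide and biliverdin and whose upstream enhancers are classical targets of NRF2 and BACH1. The region (chr8:75083724-75084224) is intergenic and was called in all 9 libraries. Its central 201 bases are shown because the repeated site is the densest in the set. They run along the plus strand of chr8:75083874-75084074, where each site reads as its reverse complement, GCTGAGTCA, in capitals.
Hmox1 upstream region: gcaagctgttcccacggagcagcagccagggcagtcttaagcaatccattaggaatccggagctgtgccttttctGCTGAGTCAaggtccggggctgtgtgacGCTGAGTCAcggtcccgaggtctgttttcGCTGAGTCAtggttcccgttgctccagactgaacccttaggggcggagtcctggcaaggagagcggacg

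The region ranked 95.2, 94.6 and 95.6 at E11.5, 91.1, 93.5 and 93.2 at E17.5 and 93.1, 89.5 and 91.6 in EPDCs. It stayed near the top of every list, and the E17.5 values lay below the E11.5 values (mean difference -2.50 percentile points), although the direction turned on the fragment scale, where the E17.5 values lay above with no overlap (0.28 on the log2 scale), and on the depth-normalized score (0.01 on the log2 scale). The call was also lost with the same number of top summits per list (-1.55 points) and by fold enrichment (-0.16 points). A second region with an ARE core lay 4.1 kb upstream of *Hmox1* and is described with the comparisons.

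*Gclc* encodes the catalytic subunit of glutamate-cysteine ligase, the rate-limiting enzyme of glutathione synthesis. A region 3.8 kb upstream of its start (chr9:77750457-77750957, intergenic) held 1 copy of TGACTCAGC and was called in all 9 libraries, at 89.3, 89.3 and 90.6 at E11.5, 91.5, 93.0 and 93.8 at E17.5 and 89.6, 92.6 and 93.0 in EPDCs. The E17.5 libraries all lay above the E11.5 libraries, by 3.04 points on average, although not when summits were ranked by fold enrichment. The strongest promoter summit of 5 members (*Gclm*, *Txnrd1*, *Srxn1*, *Keap1* and *Gsr*) lay in a window with an ARE core, and these sites are printed below with those of the upstream regions, with the core in capitals, on the strand where it reads TGACNNNGC, with 10 bases on each side.
Gclc, 3.8 kb upstream (chr9:77750735-77750763, minus strand): cgcctcaccgTGACTCAGCactctgcgcg
Hmox1, 4.1 kb upstream (chr8:75089688-75089716, minus strand): ctcccaaccaTGACACAGCataaaagcag
Gclm promoter, first site (chr3:122245413-122245441, minus strand): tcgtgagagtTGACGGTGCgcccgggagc
Gclm promoter, second site (chr3:122245642-122245670, minus strand): tggaagacaaTGACTAAGCagaaacctca
Txnrd1 promoter, first site (chr10:82858798-82858826, minus strand): gcactggctgTGACCCTGCcaaatagttg
Txnrd1 promoter, second site (chr10:82859104-82859132, minus strand): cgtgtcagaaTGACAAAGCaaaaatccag
Srxn1 promoter (chr2:152105542-152105570, minus strand): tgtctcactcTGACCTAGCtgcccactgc
Keap1 promoter (chr9:21238830-21238858, plus strand): cgggtcacggTGACTAAGCacagcgcgcc
Gsr promoter (chr8:33653481-33653509, minus strand): agcgtcgccgTGACTAAGCaccgcgcccg

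The strongest promoter windows of *Nfe2l2*, *Nqo1*, *Hmox1*, *Gclc* and *Slc7a11* held no match to TGACNNNGC. Each window ends 250 bp from its summit, so promoter sites further out were not searched, nor were elements that depart from this pattern. A weaker region in an intron of *Nfe2l2*, 0.8 kb downstream of its start, held one. The *Srxn1* promoter also held a pair of AP-1 sites, 99 and 42 bp upstream of the start. The site at 42 bp is followed by GC and so equals TGACTCAGC but for a G in place of the first C.

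The promoters of all 10 genes were called in all 9 libraries. *Gclm*, the modifier subunit of glutamate-cysteine ligase, *Nfe2l2* itself, *Srxn1* (sulfiredoxin, which restores over-oxidized peroxiredoxins), *Txnrd1* (cytosolic thioredoxin reductase) and *Nqo1* (a quinone reductase) ranked between 94.7 and 99.2 in every library. *Gclc* and *Gsr* (glutathione reductase) ranked between 79.1 and 92.5. *Slc7a11*, the cystine transporter xCT that feeds glutathione synthesis, had the lowest promoter in each E17.5 library.

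**Figure D2:**
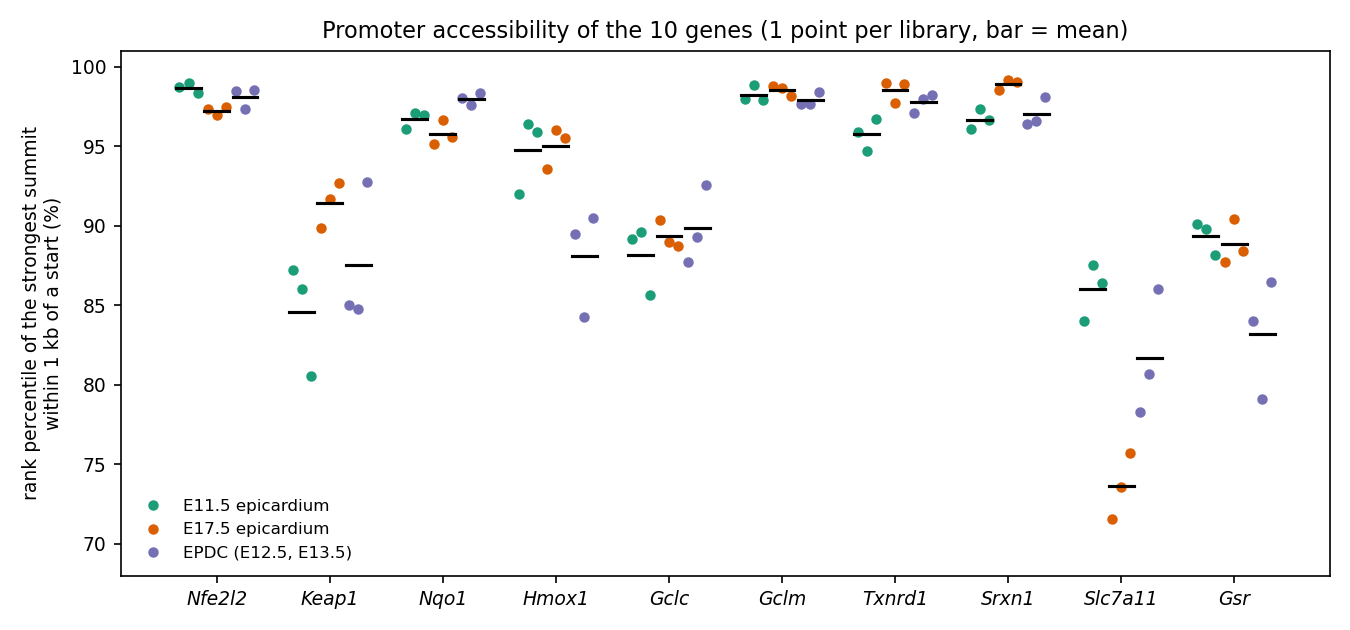
Rank percentile (y axis, %) of the strongest summit within 1 kb of a start of each gene (x axis), 1 point per library, with the mean of each group as a black bar. E11.5 epicardium is green, E17.5 epicardium orange and EPDCs purple, and the axis starts at 68%. The *Slc7a11* promoter lies at 84 to 87.6 at E11.5 and at 71.6 to 75.7 at E17.5, and the *Hmox1* and *Gsr* promoters are lowest in EPDCs.

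The first comparison asked how accessibility of these genes differed between late (E17.5) and early (E11.5) epicardium. 3 of 10 promoters were higher at E17.5 with no overlap of the groups, namely *Keap1*, *Txnrd1* and *Srxn1*, and 2, *Slc7a11* and *Nfe2l2*, were lower. Over 15245 coding promoters the same rule called 11.4% higher and 26.3% lower. The balance depended on the scale: higher promoters made up 30.2% of all promoter calls by percentile, 60.4% with the same number of top summits per list and 73.2% on the depth-normalized score, where 6 of the 10 members were higher and 1 was lower. With 3 libraries against 3, the two-sided exact permutation test cannot go below p = 0.10, which each call reached and which is not significant at the usual threshold.

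*Slc7a11* showed the largest difference. Its promoter ranked 84, 87.6 and 86.4 at E11.5 against 71.6, 73.6 and 75.7 at E17.5, with means of 86.0 ± 1.80 and 73.6 ± 2.06 (SD, n = 3) and a difference of -12.4 points. EPDCs, at 78.3, 80.7 and 86.0, lay above all E17.5 values and overlapped the E11.5 values. The fall kept its call under every alternative that gave a value, among them the same number of top summits per list (-11.0 points).

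The *Keap1* promoter, at the gene whose product restrains NRF2, moved the other way. It ranked 87.2, 86.0 and 80.5 at E11.5 against 89.9, 91.7 and 92.7 at E17.5 (means 84.6 ± 3.56 and 91.4 ± 1.43, SD, n = 3), a difference of 6.82 points. All 3 E17.5 libraries stood above all E11.5 libraries, and EPDCs (85, 84.8 and 92.8) overlapped both. The call held under every alternative that gave a value.

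The promoters of *Txnrd1* and *Srxn1*, both among the strongest few percent of summits, were stronger still at E17.5. *Txnrd1* ranked 95.9, 94.7 and 96.7 at E11.5 against 99.0, 97.7 and 98.9 at E17.5 (difference 2.73 points). *Srxn1* ranked 96.1, 97.3 and 96.6 at E11.5 against 98.5, 99.2 and 99.1 at E17.5 (difference 2.23 points). Both calls were lost when summits were ranked by fold enrichment, although the direction held. At *Txnrd1* the call belongs to the downstream start, and the start 25.1 kb further upstream gave a difference of 0.70 points with overlapping groups.

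The *Nfe2l2* promoter ranked 98.7, 99.0 and 98.3 at E11.5 against 97.3, 97.0 and 97.4 at E17.5. This difference of -1.44 points was -0.01 on the log2 scale of the depth-normalized score and turned to 0.41 on that of fragments over the genome background. *Nqo1*, *Hmox1*, *Gclc*, *Gclm* and *Gsr* promoters overlapped between the stages, with differences between -0.92 and 1.22 points. The directions at *Nqo1* and *Gsr*, -0.92 and -0.48 points, turned on the fragment scale.

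Taken over all regions, promoters and distal, the changes went both ways. Of 118 member regions called in at least 1 epicardial library, 21 (17.8%) were higher at E17.5 and 32 (27.1%) were lower. Over all 160863 regions, 12.7% were higher and 32.1% lower. Without *Gsr*, 13 of 102 regions were higher (12.7%), the share of the genome. The percentiles of regions called in all 6 libraries had a median difference of -3.03 points over the genome and of -1.43 over the 53 such member regions. With the same number of top summits taken per list, higher regions made up 46.5% of calls in place of 28.3% over the genome, and 57.1% in place of 39.6% among the members, and on the fragment scale they made up 68.2% over the genome. Among the members the balance turned with the scale, with 24 regions higher and 18 lower with the same number of top summits, 30 and 26 on the depth-normalized score, and 26 and 5 of the 49 regions with a value on the fragment scale.

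**Figure D3:**
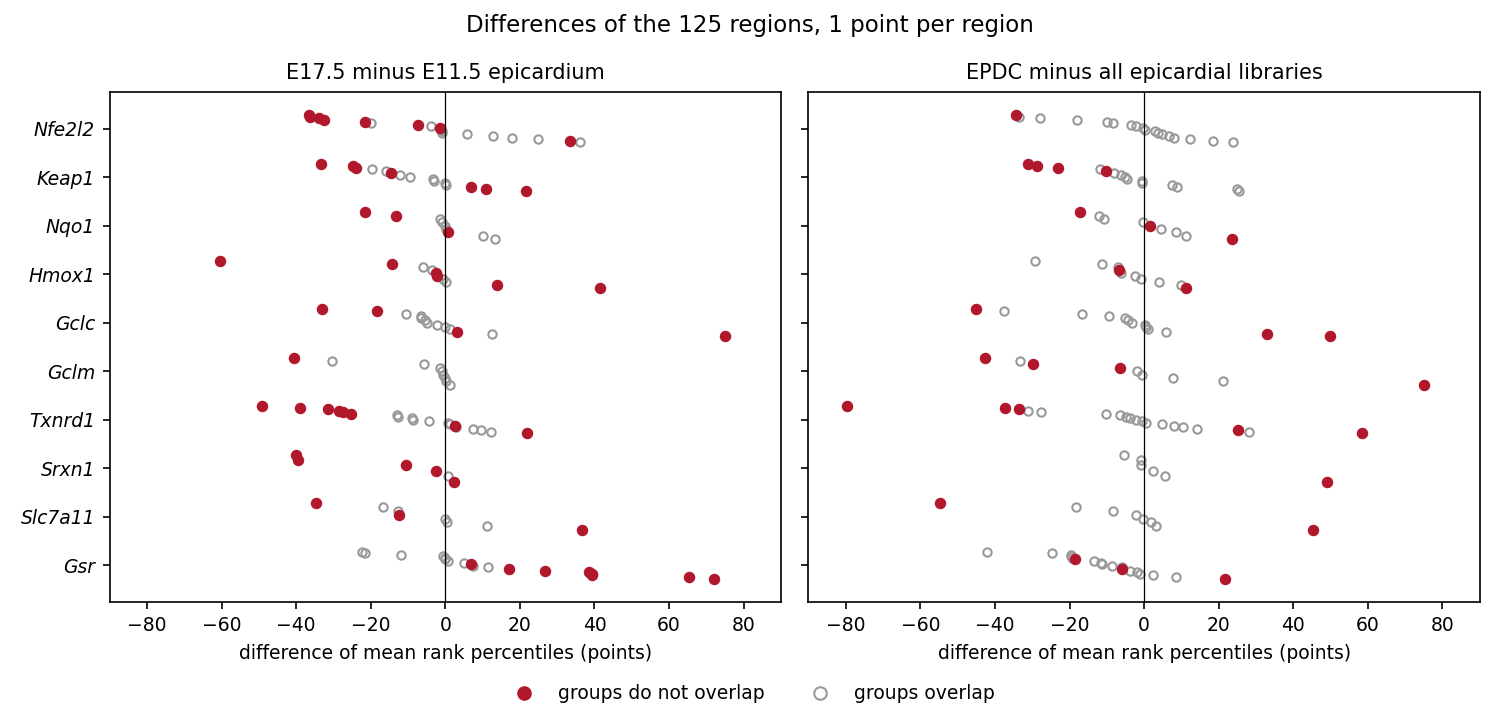
Difference of mean rank percentiles (x axis, points) for each of the 125 regions, by gene (y axis), for E17.5 minus E11.5 epicardium (left) and EPDC minus all epicardial libraries (right). Filled red points are regions whose groups do not overlap and open grey points the others. *Gsr* has 8 filled points to the right of 0 and none to the left in the stage comparison, and *Txnrd1* has the lowest point of the EPDC comparison, at -79.5.

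*Gsr*, whose product regenerates reduced glutathione with NADPH, was the member with the most gains. 8 of its 16 regions called in at least 1 epicardial library (50%) were higher at E17.5 and none was lower, against 12.7% and 32.1% of all regions, while the values of its promoter overlapped (90.1, 89.8 and 88.2 at E11.5, 87.7, 90.4 and 88.4 at E17.5). The region with the highest E17.5 rank among these lay 19.9 kb downstream of the start in an intron (chr8:33672916-33673416), at 27.8, 23.6 and 0 at E11.5, 81.4, 84.2 and 81.6 at E17.5 and 0, 0 and 22.9 in EPDCs. The difference between the stages was 65.3 points, and the summit held at least 65 fragments in each E17.5 library against at most 22 at E11.5. The E17.5 libraries stood above all 6 others, and the call held in every alternative that gave a value. The central 201 bases, on the plus strand of chr8:33673066-33673266, hold 1 AP-1 site, in capitals, and no ARE core.
Gsr, 19.9 kb downstream: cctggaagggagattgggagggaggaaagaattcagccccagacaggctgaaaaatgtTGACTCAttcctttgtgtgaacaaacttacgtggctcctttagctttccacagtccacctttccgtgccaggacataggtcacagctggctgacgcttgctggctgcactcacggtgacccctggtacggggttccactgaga

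6 regions of *Gsr* were called in all 3 E17.5 libraries and in no E11.5 library. 3 were intronic, 10.5, 31.3 and 34.4 kb downstream of the start, and lay between 14.7 and 54.8 at E17.5. 2 lay beyond the gene, 55.9 kb (35.4, 61.1 and 21.9) and 65.1 kb (8.66, 24.3 and 18.7) from the start. None of these 5 was called in any EPDC library. The sixth lay 10.8 kb upstream, at the *Ubxn8* promoter, at 63.3, 76.6 and 75.9 at E17.5, and the E12.5 sample of EPDCs called it as well, at 73.5, while the E13.5 samples did not. A peak interval covered it in all 9 libraries, and when whole intervals were compared the difference shrank from 71.9 to 0.68 points with overlapping groups, so that only the summit within the interval differed. The region 69.0 kb downstream, the last of the 8 gains, was called in all 9 libraries and differed by 7.01 points. The region 65.1 kb downstream was the weakest and lost its call with the same number of top summits per list, and that 10.5 kb downstream lost it when summits had to lie within 250 bp of the centre. The ARE cores in these regions are shown because 4 of the 6 held at least 1.
Gsr, 10.8 kb upstream, first site (chr8:33642210-33642238, plus strand): aaggggcggtTGACGCTGCgaggcccggt
Gsr, 10.8 kb upstream, second site (chr8:33642478-33642506, plus strand): tgccactccaTGACTCAGCtctggtaact
Gsr, 10.5 kb downstream, plus-strand site (chr8:33663820-33663848, plus strand): tgggctctgaTGACTGTGCccagacagcc
Gsr, 10.5 kb downstream, minus-strand site (chr8:33663752-33663780, minus strand): ctcctccatcTGACCGAGCtgaggttctg
Gsr, 31.3 kb downstream (chr8:33684522-33684550, minus strand): aggccattacTGACCTTGCcaagcatatt
Gsr, 34.4 kb downstream (chr8:33687590-33687618, minus strand): tgtgctgtcaTGACCTGGCacacggtagt

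Across the 10 genes, 9 of 118 regions (7.63%) were called in all E17.5 and no E11.5 libraries, against 5.03% of all regions, and 6 of the 9 were those of *Gsr*. The strongest of the others lay in an intron of *Gclc*, 5.5 kb downstream of the start (chr9:77759782-77760282). It ranked 71.0, 79.0 and 75.3 at E17.5 with 61, 117 and 100 fragments at the summit, and no E11.5 or EPDC library called it. The difference of 75.1 points was the largest gain among all member regions, and it kept its call in every alternative that gave a value. Its central 201 bases, on the plus strand of chr9:77759932-77760132, hold none of the motifs searched.
Gclc, 5.5 kb downstream: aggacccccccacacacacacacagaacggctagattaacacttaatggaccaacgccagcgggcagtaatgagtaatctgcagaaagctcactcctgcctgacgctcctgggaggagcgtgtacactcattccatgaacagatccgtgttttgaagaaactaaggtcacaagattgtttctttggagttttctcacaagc

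A region in the 3′ UTR of *Slc7a11*, 78.3 kb from its start (chr3:50365105-50365605), ranked 22.1, 42.5 and 45.4 at E17.5 and was likewise absent from the lists of E11.5 and EPDCs, while the promoter of the gene fell. A region 9.4 kb downstream of *Hmox1*, beyond the gene, ranked 20.6, 3.40 and 17.8 and lost its call under 3 alternatives, one of which, whole intervals, turned its direction. 18.6 kb upstream of *Hmox1* (chr8:75074815-75075315, intergenic), a region ranked 25.9, 0 and 0 at E11.5, 44.5, 59.96 and 45.6 at E17.5 and 0 in all EPDCs, a gain of 41.4 points.

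At *Nfe2l2* itself 1 of 18 regions (5.56%) was higher at E17.5 and 7 (38.9%) were lower, against 12.7% and 32.1% of all regions, so that the share of lower regions was near that of the genome. The higher one lay in an intron, 19.0 kb downstream of the start (chr2:75685371-75685871), and was chosen for display after its values were seen. It ranked 53.8, 56.0 and 45.3 at E11.5, 81.9, 88.6 and 85 at E17.5 and 32.5, 40.3 and 48.8 in EPDCs, a gain of 33.5 points. Every E17.5 library stood above all 6 other libraries, with 107, 238 and 173 fragments at the summit in E17.5. Its central 201 bases, on the plus strand of chr2:75685521-75685721, hold an AP-1 site 13 bp from the summit, in capitals.
Nfe2l2, 19.0 kb downstream: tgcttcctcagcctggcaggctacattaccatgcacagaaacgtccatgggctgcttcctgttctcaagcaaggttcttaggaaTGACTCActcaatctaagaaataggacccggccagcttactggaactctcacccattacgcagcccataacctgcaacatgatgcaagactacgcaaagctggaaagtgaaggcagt

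The losses at *Nfe2l2* included an intronic region 22.8 kb downstream, which ranked 35.6, 41.2 and 31.7 at E11.5 and was called in no E17.5 library. A further region, 34.5 kb downstream of the start and so beyond the 3′ end of the gene, ranked 31.7, 27.6 and 5.20 at E11.5 and was also absent at E17.5. Both were called in at least 2 EPDC libraries.

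Of the 118 regions, 6 (5.08%) were called in all E11.5 and no E17.5 libraries, against 12.3% of all regions. The other 4 lay 10.7 kb upstream of *Keap1* (38.8, 17.1 and 44.0 at E11.5), 8.4 kb upstream of *Nqo1* (13.0, 23.6 and 28.3), 12.2 kb upstream of *Gclc* (27.8, 28.8 and 42.7) and 60.6 kb into *Slc7a11*, in an intron (21.5, 40.4 and 41.8). These were weak regions, none above 44.0, and 4 of the 6 lost their call with the same number of top summits per list.

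The largest losses were of regions still called in some E17.5 libraries. 10 kb downstream of the *Hmox1* start (chr8:75103399-75103899, intergenic), a region ranked 67.3, 65.7 and 67.8 at E11.5 against 0, 19.5 and 0 at E17.5 (difference -60.5 points), and the EPDC libraries ranked it 44.4, 42.7 and 52.9. 46.4 kb downstream of the *Gclm* start (chr3:122291727-122292227, intergenic), the values were 49.7, 57.6 and 64.8 at E11.5 against 0, 38.6 and 12.1 at E17.5. Both calls held in every alternative that gave a value. At *Srxn1* a region 10.2 kb upstream, in the 3′ UTR of *Scrt2*, fell by 40.01 points, and a region 9.3 kb downstream fell by 39.5 points. Both of these lost their call with the same number of top summits per list.

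*Hmox1* also fell at its nearer upstream region, 4.1 kb from the start, which holds an ARE core. The values were 89.4, 86.4 and 89.9 at E11.5 against 69.3, 74.8 and 78.9 at E17.5 (means 88.6 ± 1.89 and 74.3 ± 4.82, SD, n = 3). All E17.5 libraries lay below all E11.5 libraries, with a difference of -14.3 points, a call that was lost on the fragment scale (-0.06 on the log2 scale). The promoter of *Hmox1* differed by 0.27 points with overlapping groups.

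At *Txnrd1* a pair of neighbouring summits in an intron, 622 bp apart, moved in opposite directions. The one 4.2 kb downstream of the main start ranked 49.4, 57.9 and 59.4 at E11.5 against 0, 8.96 and 10.4 at E17.5. The one 4.8 kb downstream ranked 63.5, 73.1 and 69.2 at E11.5 against 90.1, 89.9 and 91.4 at E17.5, a gain of 21.9 points. Taken as a whole interval, the first was higher at E17.5 by 27.4 points, so its loss rests on the separation of the summits. Other losses at *Txnrd1* included the 5′ UTR 1.2 kb downstream (-25.3 points) and an intron 14.7 kb upstream of the same start (-28.5 points).

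14 of the 47 regions called in all 9 libraries held an ARE core (29.8%, against 21.6% of all such regions). Besides those described above they were regions 15.5 kb into *Nfe2l2*, 45.5 kb from its start at the *Hnrnpa3* promoter, 18.6 kb downstream of the *Keap1* start, 18.5 kb downstream of the *Nqo1* start and 15.1 kb downstream of the *Hmox1* start at the *Mcm5* promoter. Between the stages, the *Nqo1* region alone of these 5 was called, at 79.2, 83.9 and 85.3 at E11.5 against 69.3, 71.7 and 68.1 at E17.5 (difference -13.1 points). That difference came to 0.01 on the log2 fragment scale.

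Among the 21 member regions higher at E17.5, 8 (38.1%) held an ARE core and 8 (38.1%) an AP-1 site, whereas 5 (15.6%) and 1 (3.12%) of the 32 lower regions did. In the genome the ARE core stood in 23.0% of higher and 19.3% of lower regions, and the AP-1 site in 35.1% and 19.6%. Both motifs were thus more frequent in higher than in lower regions at the members and in the genome. 4 of the 8 higher regions with an ARE core lie at *Gsr*, and the others are the promoters of *Keap1*, *Txnrd1* and *Srxn1* and the upstream region of *Gclc*. The median GC content of the members was 50.1% in higher and 51.8% in lower regions.

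**Figure D4:**
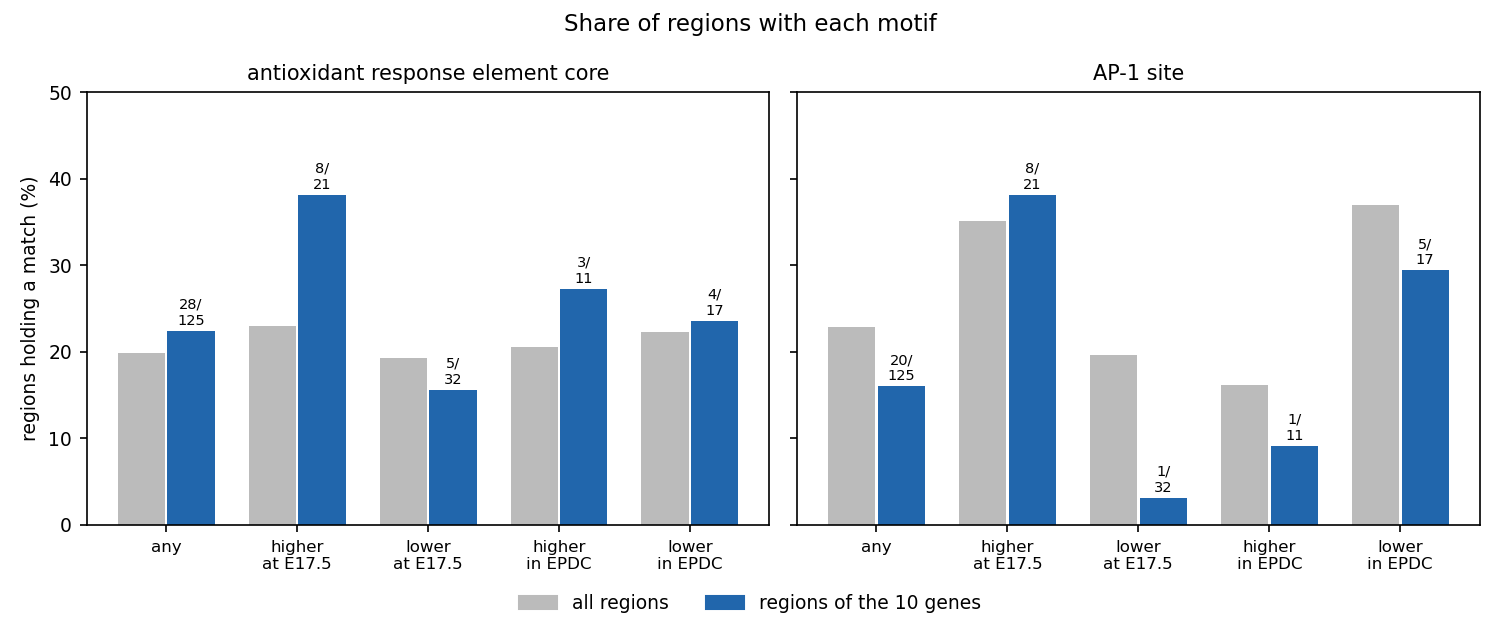
Share of regions (y axis, %) that hold the ARE core (left) or the AP-1 site (right), for all regions in grey and for those of the 10 genes in blue, by the comparison in which a region was called (x axis). Numbers over the blue bars give regions with a match over regions in the class. The AP-1 site is more frequent in regions higher at E17.5 and in those lower in EPDCs than in the opposite classes, in the genome (35.1% and 36.95%) and at these genes (38.1% and 29.4%).

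The second comparison set EPDCs against the epicardium of both stages, with a call where all 3 EPDC libraries lay outside the range of all 6 epicardial libraries. EPDCs were taken at E12.5 and E13.5 and epicardium at E11.5 and E17.5, so cell population and embryonic day cannot be told apart in this comparison. The smallest two-sided p that the exact permutation test can give over 84 assignments is 0.0238, which every member region called here reached, and it was not adjusted for the number of regions. Both comparisons share the epicardial libraries, so their values for a region are not independent. 11 of 125 member regions (8.80%) were higher in EPDCs and 17 (13.6%) were lower, against 9.35% and 8.23% of 184764 regions. This balance turned too, with 18 higher and 11 lower when summits were ranked by fold enrichment, while 1 was higher and 13 were lower among the 30 regions with a value on the fragment scale. Without the E12.5 sample, 17 were higher and 17 lower. Among promoters, *Nqo1* was higher and *Hmox1* and *Gsr* were lower, where 6.70% and 9.73% of 15750 coding promoters were called. Higher promoters made up 40.8% of all promoter calls here and 74.7% when summits were ranked by fold enrichment, and the share of higher regions went from 53.2% to 13.0% on the fragment scale.

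The *Nqo1* promoter ranked 98.0, 97.6 and 98.3 in EPDCs, 96.1, 97.1 and 97.0 at E11.5 and 95.2, 96.6 and 95.6 in the E17.5 epicardium. The difference was 1.71 points (two-sided exact permutation p = 0.0238). The *Hmox1* promoter ranked 89.5, 84.3 and 90.5 in EPDCs, 92.0, 96.4 and 95.9 at E11.5 and 93.6, 96.0 and 95.5 in the E17.5 epicardium. The difference was -6.82 points (exact permutation p = 0.0238). Every EPDC library lay below every epicardial library at *Hmox1*, and above at *Nqo1*, and both calls held in every alternative that gave a value.

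At *Hmox1* the region 4.1 kb upstream went against the promoter. It ranked 91.5, 93.3 and 93.7 in EPDCs, above all epicardial values given before, by 11.4 points on average (exact permutation p = 0.0238). The *Gsr* promoter ranked 84, 79.1 and 86.5 in EPDCs, -5.91 points from the epicardial mean. It lost its call on the depth-normalized score, by limma on that score and on fold enrichment (-0.59 percentile points). From the 5′ end of the gene record (-17.4 points) the call was lost as well. Its region also lost the call when summits had to lie within 250 bp of the centre (-5.15 points).

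The clearest loss was that of the *Txnrd1* intron 4.8 kb downstream of the main start (chr10:82863779-82864279). It ranked 63.5, 73.1 and 69.2 at E11.5, 90.1, 89.9 and 91.4 at E17.5 and was called in no EPDC library, nor did an EPDC interval overlap it. The summit held 120, 147 and 124 fragments at E11.5 against 218, 333 and 345 at E17.5. The difference of -79.5 points (exact permutation p = 0.0238) was the largest of any member region in either comparison, and the call held in every alternative that gave a value. Its central 201 bases, on the plus strand of chr10:82863929-82864129, hold an AP-1 site in capitals, 74 bp from the summit.
Txnrd1, 4.8 kb downstream: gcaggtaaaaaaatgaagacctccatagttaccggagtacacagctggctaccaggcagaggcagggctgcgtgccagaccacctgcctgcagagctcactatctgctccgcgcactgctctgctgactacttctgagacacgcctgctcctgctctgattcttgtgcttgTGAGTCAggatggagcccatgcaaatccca

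3 of the 125 regions (2.40%) were called in all 6 epicardial and no EPDC libraries, against 2.15% of all regions. Besides *Txnrd1* these were a region in the 3′ UTR of *Slc7a11*, 73.5 kb from the start (47.1, 45.5 and 54.8 at E11.5 against 61.5, 52.1 and 67.6 at E17.5), and a weaker one in an intron of *Gclm*, 7.9 kb from the start (22.3, 20.8 and 44.8 at E11.5 against 29.2, 35.5 and 26.8 at E17.5). The *Slc7a11* call held in every alternative that gave a value, and the *Gclm* call did not hold among equal numbers of top summits. The nearest EPDC summits on either side were 15.7 kb apart around the *Txnrd1* region. They were 80.6 kb apart around that of *Slc7a11* and 28.7 kb around that of *Gclm*. The part of read mapping or of list making in these 3 calls was not tested.

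Other regions lower in EPDCs were still called in them. The region 35.6 kb into *Gclc*, in an intron, ranked 47.1, 50.3 and 44.8 at E11.5, 47.9, 71.0 and 60.5 at E17.5 and 10.2, 0 and 15.6 in EPDCs (-45.0 points). The intergenic region 18.4 kb upstream of *Gclm* ranked 79.3, 88.9 and 86.7 at E11.5, 75.6, 84.8 and 77.4 at E17.5 and 51.3, 33.2 and 34.1 in EPDCs (-42.6 points). Both calls were kept under every alternative that gave a value. The region 15.5 kb into *Nfe2l2*, with an ARE core and a pair of AP-1 sites, was at 33.3, 28.8 and 34.4 in EPDCs against 47.4 to 76.6 in the epicardium, and that 40.9 kb downstream of the *Txnrd1* start was at 19.6, 15.3 and 6.16 in EPDCs against 25.8 to 74.5. Each of these last calls was lost under at least 1 alternative.

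2 of the 125 regions (1.60%) were called in all EPDC and no epicardial libraries, against 3.20% of all regions. One lay in an intron of *Slc7a11*, 49.0 kb from the start (chr3:50394379-50394879). It ranked 26.4, 57.1 and 52.1 in EPDCs, with 23, 47 and 80 fragments at the summit, and no epicardial interval overlapped it. Its central 201 bases, on the plus strand of chr3:50394529-50394729, hold an AP-1 site 4 bp from the summit, in capitals, and a pair of overlapping ARE cores lies further out in the window.
Slc7a11, 49.0 kb downstream: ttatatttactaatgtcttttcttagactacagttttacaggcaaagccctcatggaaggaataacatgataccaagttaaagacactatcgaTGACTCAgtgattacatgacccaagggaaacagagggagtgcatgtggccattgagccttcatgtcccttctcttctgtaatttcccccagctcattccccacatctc

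The other, 48.5 kb downstream of the *Gclm* start, ranked 71.8, 71.2 and 82.0 in EPDCs. It stands at the edge of one of the 83 stretches without an epicardial summit: the nearest epicardial summits on either side were 37.1 kb apart, and 5 regions shared by all EPDC lists lay between them. When whole intervals were compared the difference shrank from 75 to 8.11 points with overlapping groups, and cell population and the making of the lists cannot be told apart here. No other member region lay in such a stretch.

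Further gains in EPDCs lay at *Txnrd1*, *Gclc* and *Srxn1*. *Txnrd1* had a region 30.6 kb downstream of the main start, in an intron (chr10:82889493-82889993), at 56.0, 60.04 and 77.5 in EPDCs and at most 19.5 in any epicardial library (58.3 points, exact permutation p = 0.0238). The intronic region 17.4 kb into *Gclc*, with an ARE core, was at 52.6, 44.1 and 60.4 in EPDCs and was called in 1 epicardial library, at 15.0. The region 9.3 kb downstream of the *Srxn1* start, beyond the gene, ranked 38.4, 44.1 and 52.1 at E11.5, 16.2, 0 and 0 at E17.5 and 74.1, 72.3 and 76.3 in EPDCs. The upstream start of *Txnrd1*, 25.1 kb before the main one, ranked 77.5, 85.2 and 89.7 in EPDCs and 50.92 to 64.96 in the epicardium, whereas its main promoter overlapped. *Txnrd1* and *Gclc* thus each had intronic regions that were higher and others that were lower in EPDCs.

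The wider pathway was read at the promoters of 38 further genes, of which 36 were called in all 9 libraries. Of these 36, 4 (11.1%) were higher and 7 (19.4%) lower at E17.5, against 11.4% and 26.3% of all coding promoters, shares near or below those of the genome. The 3 lower genes of the list for turnover of NRF2 or KEAP1 were *Cul3* (-1.06 points), *Btrc* (-1.41) and *Sqstm1* (-8.93). *Sqstm1* encodes p62, which binds KEAP1 for autophagy and so acts on KEAP1 rather than on NRF2. *Sqstm1* ranked 96.6, 97.2 and 97.0 at E11.5 against 89.2, 87.6 and 87.3 at E17.5. Of the remaining 2 in that list, *Rbx1* and *Gsk3b*, neither differed with no overlap between the stages.

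The other promoters lower at E17.5 were those of *Mgst1*, a microsomal glutathione transferase (84.4, 81.1 and 85.9 at E11.5 against 66.7, 76.2 and 73.6 at E17.5), *Gss* (glutathione synthetase, -2.79 points), *Nfe2l3* (-2.50) and *Txn1* (thioredoxin, -0.39). The higher ones were *Me1*, malic enzyme, a source of NADPH (81.6, 78.2 and 82.6 at E11.5 against 87.7, 88.7 and 88.6 at E17.5), *Osgin1* (6.55 points), *Tkt* (transketolase, 1.64) and *Bach1* (0.53). Small differences near the top of the scale can turn with the scale, as at the *Nfe2l2* promoter.

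In EPDCs, 4 of the 38 promoters (10.5%) were higher and 1 (2.63%) was lower, against 6.70% and 9.73% of all coding promoters. *Txn1* (0.57 points), *Ftl1* (ferritin light chain, 0.97), *Mafg* and *Cbr1* were called higher and *Osgin1* lower (36.5, 44.8 and 55.6 in EPDCs, -22.7 points, exact permutation p = 0.0238). *Mafg*, a small MAF partner of NRF2, and *Cbr1*, carbonyl reductase, were at 83.8, 86.9 and 91.9 and at 72.2, 72.2 and 77.2 in EPDCs and were called in no epicardial library. Both starts lie in stretches without an epicardial summit, of 137 kb with 18 shared EPDC regions at *Mafg* and of 49.7 kb with 5 at *Cbr1*, where cell population and the making of the lists cannot be told apart. Of the 379 coding promoters called in all EPDC and no epicardial libraries, 228 lay in such stretches.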

How the data were processed

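ATAC-seq was deposited as MACS2 peak lists on mm10, 1 per library, for 10 samples in 9 lists (per the labels, MACS2 2.2.9.1 made them and the technical replicates of 1 EPDC sample share a list). The deposited columns hold a fold enrichment (ratio) over background, a −log10 p and a −log10 q-value at each summit. Fragments at a summit were solved here from p and fold enrichment within 0.01, for 89.9% to 99.4% of summits per list. The authors' sorts and pools are as described above. Here, summits of all lists were merged into 501-bp regions, a summit joining the nearest centre within 500 bp, and each list was ranked by −log10 p. Uncalled regions were set to 0. A call means that the groups did not overlap, with a two-sided exact permutation test over libraries for a single value, and no p is adjusted over the members. Promoters were tested at coding genes (21851 in GENCODE M21). limma 3.58.1 with Benjamini-Hochberg adjustment was an alternative, and the fits and calls were tested on simulated data. A member's extent is the span of its consensus coding (CCDS) transcripts, and distances run from their 5′ end. Named regions were the members' promoters, the 5 largest differences outside promoters in each direction whose groups did not overlap, those called in 1 group alone, and those called in all 9 lists with an ARE core. The regions 19.0 kb into Nfe2l2, 69.0 kb from Gsr, and 1.2 and 4.8 kb downstream and 14.7 and 25.1 kb upstream of the main Txnrd1 start (4.8 kb for the stages alone) were chosen after their values were seen. The members, the pathway and marker lists and the motifs were chosen with earlier results of these data known. Depth is known only through the lists, as summits per library and fragments over background, and the number of sorted cells and of reads was not analysed here. Alternatives were a stricter q-value (−log10 q of at least 5), the same number of top summits per list, ranks by fold enrichment, the depth-normalized score, fragments, 250-bp assignment, whole intervals, other gene boundaries, each library left out and a replicate block. 4 choices were added after seeing the data: full gene records, EPDCs against either stage alone, and stretches without epicardial summits. Python 3.11.15 and R 4.3.3 were used.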

Additional observations from a re-analysis of the deposited data

How the results depend on the processing

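The counts of calls moved most with the scale and with the libraries compared. As reported, 21 regions were higher and 32 lower at E17.5, and 11 were higher and 17 lower in EPDCs. With the same number of top summits per list, 24 regions were higher and 18 lower at E17.5. Ranked by fold enrichment, 18 regions were higher and 11 lower in EPDCs, 1 promoter was higher at E17.5, and 3 promoters were higher and 1 lower in EPDCs, in place of 3, 1 and 2. On log2 fragments over the genome background, 26 regions were higher and 5 lower at E17.5 and 1 was higher and 13 lower in EPDCs, and of the promoters with a value 6 were higher and 1 lower at E17.5, and 0 were higher and 1 lower in EPDCs. On the depth-normalized score (log2 of score + 1), 6 promoters were higher and 1 lower at E17.5 and 1 was lower in EPDCs, and limma on that score called 1 promoter lower at E17.5 and 1 lower in EPDCs. From the 5′ end of the gene record, 2 promoters were higher and 1 lower in EPDCs. Set against E11.5 epicardium alone, EPDCs had 27 lower regions and 2 higher promoters, and against E17.5 epicardium alone 23 higher and 32 lower regions and 2 higher promoters. With full gene records, 21 regions were higher in EPDCs. The 2 regions called in EPDCs alone became 4 with −log10 q of at least 5, 4 with the same number of top summits per list, 1 by whole intervals and 1 outside the stretches without an epicardial summit. The cause of these changes was not tested, except that the fragment scale and the gene records hold other sets of regions or promoters.

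Leaving out 1 library gave 22 to 30 regions higher and 32 to 40 lower at E17.5, 11 to 17 higher and 17 to 22 lower in EPDCs (17 higher without the E12.5 sample), 3 to 4 promoters higher and 2 to 3 lower at E17.5, and 1 to 1 higher and 2 to 3 lower in EPDCs. Fewer libraries can only add calls under the rule of no overlap, so this does not test the stability of a call. The replicate numbers did not pair the samples: deviations of same-numbered libraries correlated at 0.03, 0.09 and -0.05 over 59781 regions. limma with the replicate block called 5 promoters higher and 1 lower at E17.5.

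Directions turned for these values, called as reported or under the alternative. On log2 fragments the stage difference was 0.35 at the *Nfe2l2* region 0.8 kb downstream, 0.75 at 15.5 kb, 0.53 at 45.5 kb (0.20 on the score), 0.01 at the *Nqo1* region 18.5 kb downstream, 0.28 at the *Hmox1* region 9.6 kb upstream (0.01 on the score, 0.01 by limma and 0.01 with the replicate block), 0.55 at the *Gsr* promoter, 0.41 at the *Nfe2l2* promoter and 0.54 at the *Nqo1* promoter (0.18 on the score). That scale moved the median of all regions by 0.22 and of all promoters by 0.47 (log2), and the score moved that of promoters by 0.22. Whole intervals gave -4.72 at the *Hmox1* region 9.4 kb downstream and 27.35 at the *Txnrd1* region 4.2 kb downstream. Fold enrichment gave 3.42 at the *Srxn1* promoter in EPDCs. 17 values, some of them also listed above, had a sign that turned with at least 1 alternative other than leaving out a library, without a call there or as reported. Among them, the same number of top summits gave 4.54 in place of -3.89 points at the *Nfe2l2* region 15.5 kb downstream, 2.26 in place of -0.48 at the *Gsr* promoter and 0.68 in place of -6.03 at the *Hmox1* region 15.1 kb downstream. Of 50 single values called, 24 kept their call under every alternative that gave a value.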

Other observations

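The surroundings of *Keap1* held further differences, chosen for mention after their values were seen. The region 14.0 kb downstream of its start, intergenic and with an AP-1 site, ranked 73.9, 81.0 and 82.5 at E11.5, 88.0, 91.9 and 90.3 at E17.5 and 64.9, 55.1 and 64.6 in EPDCs, so that it was higher at E17.5 and lower in EPDCs with no overlap. The region at the *S1pr5* promoter, 9.3 kb upstream of *Keap1* and also with an AP-1 site, ranked 79.6, 81.4 and 77.3, 73.0, 78.9 and 76.7 and 49.6, 47.6 and 49.9 in the same order and was lower in EPDCs. *S1pr5* encodes a sphingosine-1-phosphate receptor. A region in the 5′ UTR of *Keap1*, 1.6 kb downstream of its start, fell at E17.5 while the promoter rose, from 61.2, 73.4 and 65.5 to 36.2, 53.7 and 36.3.

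Of 6 mesenchyme and fibroblast marker promoters outside the member list, 3 were higher and 1 lower at E17.5, and 1 was higher and 1 lower in EPDCs, with median differences over the list of 1.78 and -1.81 points. Over all coding promoters 11.4% were higher and 26.3% lower at E17.5, and 6.70% were higher and 9.73% lower in EPDCs. *Postn*, a gene of activated fibroblasts and mesenchyme, was called in no E11.5 library, at 43.5 to 50.2 at E17.5 and at 71.7 to 81.8 in EPDCs. *Dcn*, which encodes decorin, was lower both at E17.5 (-5.98 points) and in EPDCs (-5.95 points). The part of these markers in the differences at the NRF2 genes was not tested.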
